A study of Mus musculus with 2 samples.

Results

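Natural killer (NK) cells and other lymphocytes that carry killer-lectin receptors were examined in tumour-draining inguinal lymph nodes of the mouse. The cells were taken by a fixed rule from the 2 single-cell libraries: at least 1200 UMIs (unique molecular identifiers, each counting 1 captured RNA molecule), at least 200 genes, at most 25% mitochondrial UMIs, at least 2 UMIs summed over Klre1, Klrb1c, Ncr1, Klra7, Klra8 and Klra1, no Cd8a, Cd8b1, Prox1 or Egfl7, and at most 1 UMI of Cd79a. The rule kept 69 cells of the 8091 that passed the quality limits, 19 in the WT library and 50 in the library labelled KO. Cells without a UMI of Cd3e, Cd3d or Cd3g are called NK-like (10 WT, 26 KO) and those with at least 1 are called T-like (9 WT, 24 KO).

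The study compared wild-type mice with mice in which Atg5, a gene needed to build autophagosomes, is knocked out in lymphatic endothelial cells (LECs). The WT library pooled 13 nodes and the KO library 9 nodes. From each, viable CD45+ CD31- Ter119- immune cells and CD31+ CD45- endothelial cells were sorted and pooled. The labels do not give the tumour, the strain, the age of the mice or the transgene that deletes Atg5. The killer-lectin cells studied here are not the cells targeted by the knockout. There was 1 library per genotype, so no difference between genotypes has a replicate check and no test was made. Intervals are exact 95% intervals that cover counting error only, and they are too narrow because UMIs cluster in cells.

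NK cells are innate lymphocytes that kill infected or transformed cells by releasing perforin and granzymes, and they also secrete interferon gamma and chemokines. Activating and inhibitory receptors, many of them C-type lectins encoded in the NK gene complex, set whether a cell responds, and adaptors such as Tyrobp (DAP12) and Fcer1g carry the activating signal. Eomes and Tbx21 (T-bet) are the T-box factors that direct their development. In lymph nodes such cells are a minority among B and T cells.

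Promoters of 4 of the 6 selecting receptors are shown, an activating and an inhibitory Ly49 gene beside the genes of NKp46 and NK1.1. The windows hold 250 bases before and 50 after the start that RefSeq annotates on GRCm38.p6, and capitals mark the motif matches on either strand. The GENCODE bounds of Klrb1c and Klra7 reach further upstream than these windows, so transcripts of both may also start elsewhere.
Ncr1 (chr7:4337465-4337764, plus strand): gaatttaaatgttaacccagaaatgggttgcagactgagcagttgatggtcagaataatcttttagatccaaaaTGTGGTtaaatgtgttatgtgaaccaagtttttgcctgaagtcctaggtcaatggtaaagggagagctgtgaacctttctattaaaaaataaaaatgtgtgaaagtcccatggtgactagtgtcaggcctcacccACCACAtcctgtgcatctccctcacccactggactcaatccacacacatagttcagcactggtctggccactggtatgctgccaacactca
Klrb1c (chr6:128788592-128788891, minus strand): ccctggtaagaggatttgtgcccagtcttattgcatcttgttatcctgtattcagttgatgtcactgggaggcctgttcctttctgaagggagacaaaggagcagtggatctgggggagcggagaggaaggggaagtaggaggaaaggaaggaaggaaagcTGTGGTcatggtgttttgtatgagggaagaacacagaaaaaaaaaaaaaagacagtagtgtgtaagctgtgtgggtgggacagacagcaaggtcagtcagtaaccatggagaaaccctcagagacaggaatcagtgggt
Klra7 (chr6:130231638-130231937, minus strand): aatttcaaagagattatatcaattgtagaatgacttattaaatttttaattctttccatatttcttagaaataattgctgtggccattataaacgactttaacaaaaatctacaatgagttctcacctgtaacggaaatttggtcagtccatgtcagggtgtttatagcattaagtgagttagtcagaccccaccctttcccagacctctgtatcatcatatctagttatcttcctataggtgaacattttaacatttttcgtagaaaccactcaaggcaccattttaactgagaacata
Klra8 (chr6:130129849-130130148, minus strand): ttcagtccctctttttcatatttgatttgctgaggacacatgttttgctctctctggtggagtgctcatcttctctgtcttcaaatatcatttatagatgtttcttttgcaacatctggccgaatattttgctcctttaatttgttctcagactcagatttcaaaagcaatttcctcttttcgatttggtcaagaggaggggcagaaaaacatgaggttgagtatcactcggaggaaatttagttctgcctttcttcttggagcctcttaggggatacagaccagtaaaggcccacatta
The 2 motifs searched were the T-box half-site AGGTGT and the RUNX core TGTGGT, with their reverse complements. Ncr1, which encodes the activating receptor NKp46, held 2 RUNX matches. Klrb1c, which encodes NK1.1, held 1. Klra7 and Klra8, which encode the inhibitory Ly49G and the activating Ly49H, held none, and none of the 4 windows held the T-box half-site. Among 32851 RefSeq promoter windows, 16.8% held the RUNX core and 13.7% the T-box half-site. The Klra7 and Klra8 windows were 48.1% identical over their alignment, whereas those of Klra8 and Klra4 were 86.0% identical. The Klra family can share reads. Of the 50-base windows in the last 500 transcript bases, 13.1% in Klra8, 4.66% in Klra4, 42.4% in Klra3 and 0% in Klra7, Klre1, Klrb1c and Ncr1 occurred in a transcript of another of the genes compared, so counts of Klra3 and its closest relatives are uncertain.

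The libraries held 23649554 UMIs (WT) and 23089918 UMIs (KO) over all barcodes. Among cells past the limits, 14 cell barcodes occurred in both libraries, and 0 of these were killer-lectin cells. Scrublet marked 28 WT and 31 KO cells as doublets, 0 of them killer-lectin cells. The pools differed in sex. Of immune cells with either Y-linked or Xist transcripts, 80.1% carried the Y-linked genes alone in WT and 53.6% in KO. Atg5 stood at 40.6 CPM (counts per 1000000 non-mitochondrial UMIs) in LECs of both libraries, and the labels name no deleted exon, so these counts do not check the genotype.

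NK-like cells made up 0.397% (interval 0.191 to 0.729) of 2518 WT immune cells and 0.750% (0.491 to 1.10) of 3466 KO immune cells. The 2 intervals overlapped. T-like cells made up 0.357% (0.164 to 0.677) in WT and 0.692% (0.444 to 1.03) in KO, again with overlapping intervals. T-like cells were 47.4% of the killer-lectin cells in WT and 48.0% in KO. The sort and the pooling of gates set what could enter these shares. Among male cells alone, NK-like cells were 0.424% of WT and 0.641% of KO immune cells. Among female cells they were 0 of 292 in WT, which allows up to 1.26%, and 0.845% in KO.

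**Figure D1:**
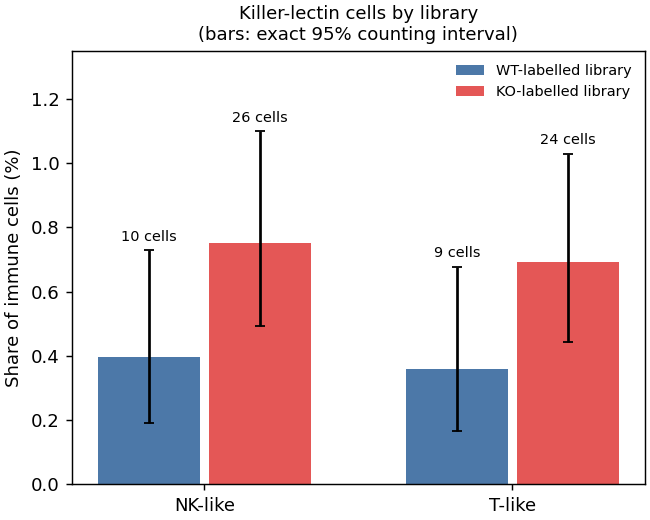
Share of immune cells (%) that were NK-like or T-like in each library, with exact 95% counting intervals as bars and cell numbers above. NK-like cells stood at 0.397% in WT and 0.750% in KO, and the intervals overlap in both classes.

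The NK label was checked against Klre1, Ncr1, Klrb1c, Klra7 and Eomes. At least 3 of these 5 markers were detected in 7 of 10 WT and 24 of 26 KO NK-like cells, against 4 of 9 and 8 of 24 T-like cells. Klre1, Ncr1, Klrb1c and Klra7 belong to the rule, so their presence is no finding. Eomes, which the rule did not use, was detected in 6 of 10 WT and 21 of 26 KO NK-like cells. It was not particular to them, since 9 of 17 WT and 24 of 33 KO cells kept out by the Cd8 limit alone carried it. Near the threshold, 1 WT NK-like cell held exactly 2 receptor UMIs and 0 KO cells did. That WT cell carried 31 UMIs of Il7r, 5 of Trbc2 and 3 of Cd4, with no UMI of Eomes or Gzma. Just outside, 2 WT and 0 KO cells without CD3 held 1 receptor UMI, and the Cd8 limit alone kept out 17 WT and 33 KO cells.

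Markers of monocytes and macrophages, neutrophils, mast cells, erythroid cells, LECs, blood endothelium and fibroblasts were at 0 in WT NK-like cells. In KO NK-like cells they gave 2 UMIs for the monocyte list and 1 each for the LEC and blood endothelial lists. Lists of other innate lymphoid cells were not at 0. The ILC1 list gave 61 WT and 70 KO UMIs, of which Il7r made 48 and 42, and 1 WT cell held 37. The ILC2 list gave 26 and 39 and the ILC3 list, which includes the rule gene Ncr1, 21 and 57. B cell markers gave 15 and 22 UMIs and those of conventional dendritic cells 18 and 32. The list of plasmacytoid dendritic cell markers gave 39 WT and 74 KO UMIs, of which Irf8, also used by NK cells, gave 28 and 58. Their part in the results below was not tested.

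The receptor adaptors, which the rule did not use, separated the classes in WT and only in part in KO. Tyrobp was detected in 10 of 10 WT and 23 of 26 KO NK-like cells, and Fcer1g in 10 and 25. In T-like cells Tyrobp was detected in 3 of 9 and 3 of 24, and Fcer1g in 5 and 10. B cells, which should lack Fcer1g, showed it in 0.817% (WT) and 0.710% (KO) of cells, at median depths of 2756 and 2761 UMIs against 4267 and 3394 in NK-like cells. Summed over the pair, NK-like cells held 6 to 19 UMIs each in WT (median 10.5) and 1 to 18 in KO (median 8.5). T-like cells held 0 to 5 in WT (median 2.0) and 0 to 12 in KO (median 0.5). The classes did not overlap in WT. In KO they overlapped, with 12 of 24 T-like cells at or above the lowest NK-like cell and 22 of 26 NK-like cells at or below the highest T-like cell. Both counts are set by single cells. The lowest NK-like cell carried 9 UMIs of Il7r and 1 of Trac, with none of Gzma or Eomes. The highest T-like cell held all 19 Gzma UMIs of its class. At least 5 adaptor UMIs were held by 21 NK-like and 3 T-like KO cells.

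**Figure D2:**
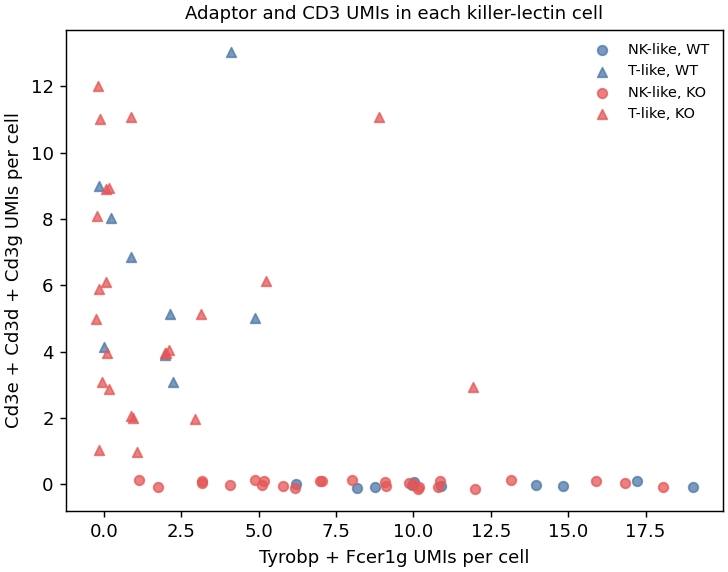
Each point is 1 killer-lectin cell, with Tyrobp plus Fcer1g UMIs on the horizontal axis and CD3 UMIs on the vertical axis, jittered slightly. NK-like cells lie on the CD3 zero line by rule and reach 19 adaptor UMIs in WT, while 12 of 24 KO T-like cells had no adaptor UMI.

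The constant genes of the T cell receptor followed the CD3 division with exceptions. Trac, the alpha constant gene, was detected in 0 of 10 WT and 2 of 26 KO NK-like cells, against 6 of 9 and 17 of 24 T-like cells. Trbc2 was detected in all 9 WT and all 24 KO T-like cells, and in 2 and 4 NK-like cells. Trbc1, the other beta constant gene, showed the opposite order, with 6 of 10 and 20 of 26 NK-like cells against 0 of 9 and 7 of 24 T-like cells. B cells showed Trbc1 in 0.520% (WT) and 0.323% (KO). Trdc, the delta constant gene, was detected in 1 of 10 WT and 10 of 26 KO NK-like cells. When any constant-gene UMI also moved a cell to the T-like class, 1 WT and 2 KO NK-like cells were left.

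T-like cells went against an NK label and are called by the rule alone. Of 9 WT cells, 6 carried Trac without Trdc and 3 Trdc without Trac. Of 24 KO cells, 15 carried Trac without Trdc, 5 Trdc without Trac, 2 both and 2 neither. Ikzf2, which encodes the Helios factor, was detected in 8 of 9 WT and 19 of 24 KO T-like cells, against 0 of 10 and 2 of 26 NK-like cells. Ly6c2, which encodes a Ly6C surface protein, stood at 2643 and 1734 CPM in T-like and 273 and 224 CPM in NK-like cells. One KO T-like cell held all 19 Gzma UMIs of its class.

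Across 2901 genes with at least 20 UMIs, the NK-like over T-like ratio had the same direction in both libraries for 1573. Unrelated libraries would also share a direction for many genes, so this count is not read as an excess. Of the 2901 genes, 125 were at least 2-fold higher in NK-like and 86 in T-like cells in both libraries, and no background was computed for these counts. This describes classes that were cut on expression and was not tested. Gzma, the serine protease granzyme A, gave 129 UMIs in WT and 315 in KO NK-like cells, and 2 and 19 in T-like cells. Gzmb, granzyme B, gave 78 and 83 against 3 and 7. Klri2, a killer-lectin receptor gene, gave 24 and 53 against 0 and 0. With 3 counts set in place of 0, its WT ratio was 7.02 (lower limit 5.28). Other genes on the NK-like side were Klra4, Car2 (a carbonic anhydrase), Vegfa, Irf8, Tyrobp, Klrb1b and Serpinb9, an inhibitor of granzyme B. Besides Trac, Trbc2, Cd3e, Cd3g, Ikzf2 and Ly6c2, the T-like side held Gpr183, an oxysterol receptor that guides cells in lymphoid tissue, Actn1, Tcrg-C4 and Slco3a1. Ccl5, a chemokine, was abundant in both, at 3661 (WT) and 6124 (KO) CPM in NK-like and 5727 and 5518 CPM in T-like cells.

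**Figure D3:**
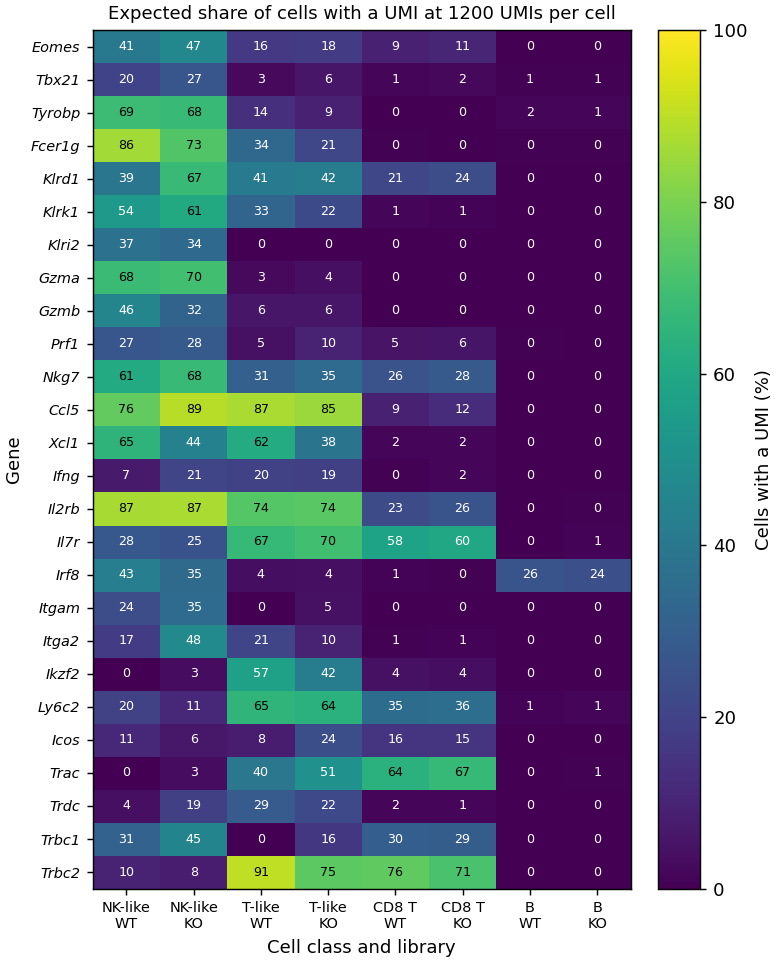
Expected share of cells (%) with a UMI of each gene after thinning every cell to 1200 UMIs, in NK-like, T-like, CD8 T and B cells of each library. Gzma stands at 68.0% and 69.7% in NK-like cells and 2.51% and 4.15% in T-like cells, and Trbc2 at 10.1% and 7.61% against 90.6% and 74.9%.

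Within NK-like cells, 1432 genes had at least 20 UMIs. At a ratio of at least 2-fold, 156 genes (10.9%) were higher in KO and 116 (8.1%) were lower, and the counting interval left out 1 for 80 and 81 of them. The median log2 ratio of all these genes was 0.06. For 178 genes, 1 cell gave over 50% of the UMIs in at least 1 of the libraries. The WT side rests on 10 cells, of which 7 held at least 3 of the 5 markers, so log2 ratios among only those 7 WT and 24 KO cells are given (as "with 3 markers") beside the ratios past 2-fold and those whose interval left out 1. That restriction was chosen after the data were seen, and 4 of its 5 markers belong to the rule, so it is no independent check. Ratios in male cells alone rest on 5 WT and 7 KO cells and are given for some genes only. The deepest WT cell held 9123 of the 46815 UMIs of WT NK-like cells. It had 3 receptor UMIs, 27 of Gzmb and 28 of Xcl1, and none of Eomes, Gzma, Ccl5, Klrd1, Klra4, Itga2 or Ccr2. WT levels of these genes depend in part on that cell.

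Of 14 activating receptors measured, 3 (Ncr1, Klrb1c and Klra8) belong to the rule that chose the cells, so their values only describe the selection. Among the other 11, 8 were higher and 3 lower in KO NK-like cells, and the median was 0.28 on the log2 scale. Past 2-fold were 3 higher (27.3%, against 10.9% of all genes) and 2 lower (18.2%, against 8.1% of all genes). The rule gene Klra8 gave 8 UMIs in 1 WT cell and 74 in 9 KO cells. Klra4, an activating Ly49 gene, gave 18 UMIs in 3 WT cells and 117 in 15 KO cells, a ratio of 3.19 (1.94 to 5.58). Its log2 ratio of 1.68 was 1.03 with 3 markers and 0.52 in male cells alone. One WT cell held 13 of the 18 Klra4 UMIs, and with each library's highest cell left out the log2 ratio was 3.23. Klrk1, which encodes NKG2D, gave 40 and 100 UMIs, a ratio of 1.23 (0.844 to 1.82). Tnfrsf9, the costimulatory receptor 4-1BB, gave 21 UMIs in 5 WT cells and 9 in 6 KO cells, a ratio of 0.211 (0.0849 to 0.480), and fell under the UMI minimum with 3 markers.

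Of 9 inhibitory or paired receptors, 3 (Klra1, Klra7 and Klre1) belong to the rule. Among the other 6, 3 were higher and 3 lower in KO, with a median of -0.18 on the log2 scale. Each way 1 gene was past 2-fold, 16.7% against 10.9% (higher) and 8.1% (lower) of all genes. Klrd1, which encodes CD94, the partner chain of NKG2 receptors, gave 16 UMIs in 6 of 10 WT cells and 116 in 23 of 26 KO cells. Its ratio was 3.56 (2.10 to 6.44), and the log2 ratio of 1.83 was 1.12 with 3 markers and 2.41 in male cells alone. In T-like cells Klrd1 gave 25 and 56 UMIs, a ratio of 0.852 (0.523 to 1.42). Klrc1, which encodes the NKG2A partner of CD94, gave 24 and 35 UMIs, a ratio of 0.717 (0.414 to 1.26). The 12 adaptors and kinases had a median log2 ratio of 0.69, with 10 higher and 2 lower. Only 1 of the 12, Syk, was past 2-fold (log2 ratio 1.50, and 0.79 with 3 markers), against 10.9% of all genes higher. Tyrobp and Fcer1g stood at ratios of 1.10 (0.757 to 1.62) and 0.791 (0.591 to 1.07).

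**Figure D4:**
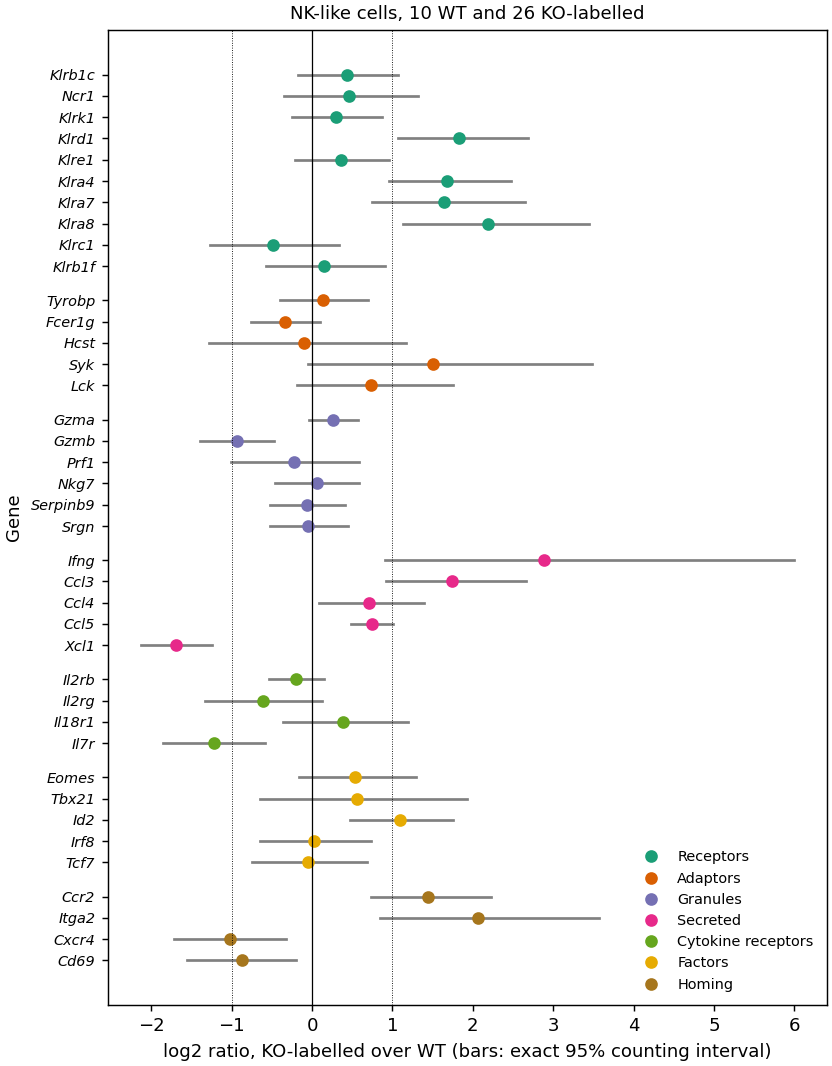
The log2 ratio of KO over WT in NK-like cells for genes grouped by role, with exact 95% counting intervals as bars and dotted lines at 2-fold; Klrb1c, Ncr1, Klre1, Klra7 and Klra8 belong to the rule. Klrd1, Klra4, Ccl3 and Itga2 lie to the right, at 1.83, 1.68, 1.74 and 2.06, and Xcl1 lies to the left at -1.69.

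Of 10 granule and death-ligand genes, 3 were higher and 7 lower in KO NK-like cells, and the list median was -0.14. Each way 1 of the 10 was past 2-fold, against 10.9% (higher) and 8.1% (lower) of all genes. Gzma, in 7 WT and 19 KO cells, had a ratio of 1.20 (0.975 to 1.48). Gzmb, in 5 WT and 10 KO cells, had a ratio of 0.523 (0.379 to 0.722). Its log2 ratio of -0.94 was -0.97 with 3 markers and -0.73 in male cells alone. The deepest WT cell, which had no Gzma or Eomes, held 27 of the 78 WT UMIs of Gzmb. Prf1, which encodes perforin, gave 23 and 40 UMIs, a ratio of 0.855 (0.499 to 1.50), with 15 of the WT UMIs in 1 cell. Fasl, the death ligand, gave 3 and 20 UMIs, a ratio of 3.28 (0.972 to 17.2), and its log2 ratio of 1.71 was 0.99 with 3 markers.

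Secreted factors differed among themselves. Xcl1, a chemokine that attracts cross-presenting dendritic cells, gave 114 UMIs in 8 WT cells and 72 in 17 KO cells, a ratio of 0.310 (0.228 to 0.421). One WT cell held 52 of the 114, and with each library's highest cell left out the log2 ratio was -1.21 in place of -1.69. In male cells alone it was -2.38, and with 3 markers -1.86. Ccl3, an inflammatory chemokine, gave 14 UMIs in 5 WT cells and 95 in 12 KO cells, a ratio of 3.33 (1.89 to 6.33). Its log2 ratio of 1.74 was 1.73 with 3 markers and 2.26 in male cells alone. Ccl5 had a ratio of 1.67 (1.40 to 2.01), and its log2 ratio of 0.74 was 0.14 with 3 markers and 1.10 in male cells alone. Ccl4, a related chemokine, stood at a log2 ratio of 0.71, at -0.02 with 3 markers and at 1.96 in male cells alone. Ifng, interferon gamma, gave 2 UMIs in 2 WT cells and 30 in 9 KO cells, a ratio of 7.37 (1.87 to 63.7), and its log2 ratio of 2.88 was 2.23 with 3 markers. Xcl1 was also lower in KO T-like cells, at 54 and 65 UMIs and a ratio of 0.458 (0.314 to 0.669), whereas Ifng there stood at 0.929 (0.411 to 2.29).

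Cytokine receptors had a median log2 ratio of -0.32 over 11 genes, 3 higher and 8 lower. Il2rb, the beta chain shared by the interleukin-2 and interleukin-15 receptors, was detected in 10 of 10 WT and 26 of 26 KO cells, with a ratio of 0.873 (0.689 to 1.11). Il7r, the interleukin-7 receptor, gave 48 UMIs in 4 WT cells and 42 in 9 KO cells, a log2 ratio of -1.22. The direction turned to 0.10 when at least 3 receptor UMIs were required, which drops the WT cell with 31 Il7r UMIs, and to 1.37 with 3 markers. A split by Il7r, chosen after the values were seen, separated granule expression. Gzma was detected in 1 of 4 WT and 3 of 9 KO cells with Il7r, and in 6 of 6 WT and 16 of 17 KO cells without it. Itgam, the CD11b integrin of mature NK cells, was detected in 1 of 4 and 0 of 9 cells with Il7r and in 3 of 6 and 13 of 17 without.

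Among 16 lineage factors, 10 were higher and 6 lower, and the list median was 0.14. Eomes gave 23 and 68 UMIs, a ratio of 1.45 (0.894 to 2.44), and Tbx21 gave 8 and 24, a ratio of 1.47 (0.641 to 3.80). Id2, an inhibitor of E proteins needed for innate lymphocytes, gave 27 UMIs in 7 WT cells and 117 in 24 KO cells, a ratio of 2.13 (1.39 to 3.37). Its log2 ratio of 1.09 was 2.02 in male cells alone and 1.55 with 3 markers. Irf8 stood at 1.02 (0.638 to 1.66).

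The 18 homing and residency genes had a median log2 ratio of 0.58, with 12 higher and 6 lower. Of the 18, 4 were past 2-fold higher and 1 lower, against 10.9% and 8.1% of all genes. Itga2, which encodes the CD49b integrin of NK cells, gave 6 UMIs in 5 of 10 WT cells and 51 in 22 of 26 KO cells, a ratio of 4.18 (1.79 to 11.9). Ccr2, a chemokine receptor, gave 19 UMIs in 7 WT cells and 105 in 18 KO cells, a ratio of 2.72 (1.66 to 4.69). With 3 markers the log2 ratios were 1.68 for Itga2 and 0.79 for Ccr2, and in male cells alone 2.30 and 1.59. Cxcr4, a retention receptor, and Cd69, an activation marker that opposes egress, were lower, at 0.491 (0.303 to 0.797) and 0.545 (0.341 to 0.873). Their log2 ratios of -1.02 and -0.88 were -0.23 and 0.27 in male cells alone, and -0.20 and -1.32 with 3 markers.

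The 12 interferon-stimulated genes measured had a median log2 ratio of 0.32, the 9 MHC class I genes -0.08, the 5 core autophagy genes 0.46, and the early and late maturation lists 0.13 and 0.03. Immediate early and dissociation genes, which respond to tissue handling, were lower for 23 of 35 genes in NK-like cells and higher for 12 (median -0.24). Past 2-fold were 4 lower genes, 11.4% of the list against 8.1% of all genes, a share near the background. None of the list was past 2-fold higher, against 10.9% of all genes. The counting interval left out 1 for 13 lower and 2 higher genes of the list, and for 244 of all 1432 genes in either direction. The 4 genes past 2-fold were the heat shock genes Hspa1a, Hsp90aa1, Dnajb1 and Hsph1. Their log2 ratios of -1.30, -1.06, -1.74 and -1.08 were -1.95, -1.11, -0.26 and -0.03 with 3 markers. The part of tissue handling in the other differences was not tested.

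**Figure D5:**
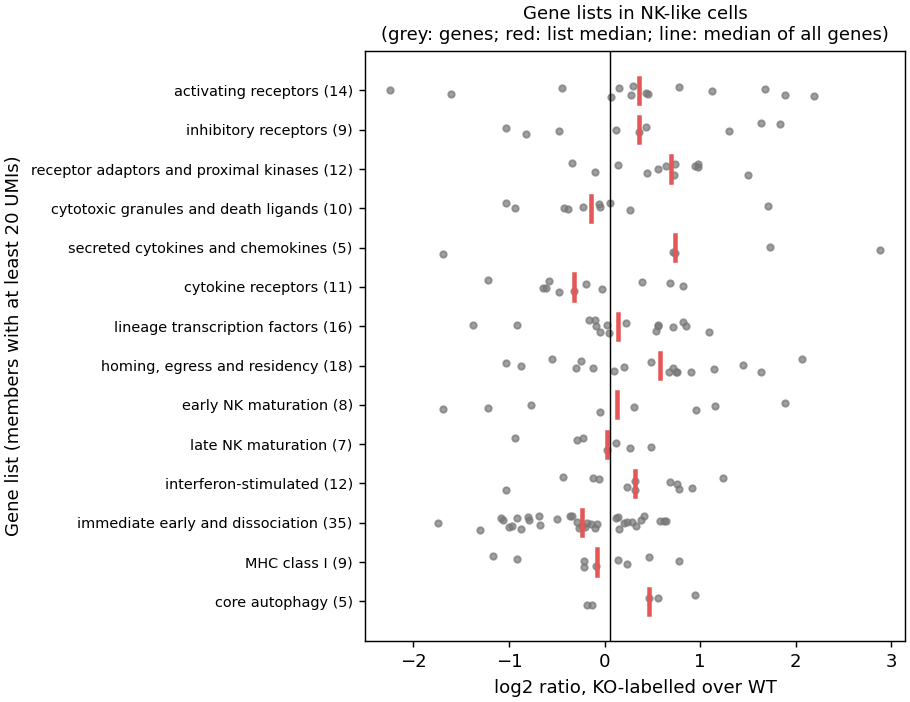
The log2 ratio of KO over WT in NK-like cells for members of each gene list with at least 20 UMIs (grey points, genes of the rule included), the list median (red) and the median of all genes, 0.06 (black line). Adaptors and kinases have a median of 0.69 and cytokine receptors of -0.32, and members spread widely within each list.

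By size of ratio alone, the 10 genes highest in KO NK-like cells were Elf4, Arsb, Pik3ca, Lbr, Parvg, Wac, Ifng, Xist, Nr3c1 and Kdm7a, all with 0 to 2 WT UMIs. Elf4, an ETS factor, gave 1 and 26 UMIs, the latter in 14 KO cells. Its log2 ratio of 3.68 was 1.44 (lower limit 1.04) with 3 markers, where WT held none and 3 counts were set in place of 0. Xist, expressed from the inactive X chromosome, gave 0 UMIs in WT and 44 in 8 KO cells. With 3 counts set in place of 0, its ratio was 7.21 (lower limit 5.62). The log2 ratio of 2.85 was 2.20 (lower limit 1.84) with 3 markers. Xist was also used to call cells female, and 0 WT and 8 KO NK-like cells were called so. The lowest were Psme3, Odc1, Tasor2, Tnfrsf9, Nme1, Mif, Xrn1, Ccnt1, Hnrnpul2 and Slc1a5. Odc1, the rate-limiting enzyme of polyamine synthesis, gave 60 UMIs in 7 WT cells and 24 in 8 KO cells, a ratio of 0.197 (0.117 to 0.320), with 24 of the WT UMIs in 1 cell. Its log2 ratio of -2.35 was -1.33 with 3 markers and -1.63 in male cells alone.

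In T-like cells, 1481 genes had at least 20 UMIs, of which 233 (15.7%) were at least 2-fold higher and 82 (5.54%) at least 2-fold lower in KO. Their median log2 ratio was 0.08. Il7r gave 50 UMIs in 8 WT cells and 227 in 21 KO cells, a ratio of 1.73 (1.27 to 2.39). Icos, a costimulatory receptor, gave 6 and 61 UMIs, a ratio of 3.87 (1.68 to 10.9), with 33 of the KO UMIs in 1 cell. Trbc2 had a ratio of 0.528 (0.403 to 0.695) and Ly6c2 of 0.656 (0.511 to 0.846). Ccl5 stood at 0.963 (0.823 to 1.13). Immediate early genes were lower for 25 and higher for 9 of 34 genes, with 7 and 4 past 2-fold (20.6% and 11.8% of the list) and a median of -0.52. The highest ratio, for Tcrg-C1, a gamma constant gene, rested on 1 KO cell with 29 of 47 UMIs, and the lowest, for Klra1, on 1 WT cell with 23 of 27.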

How the data were processed

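The deposited files hold UMI counts per cell barcode and gene, unfiltered. Per the file headers, the authors ran the BD Rhapsody WTA Analysis Pipeline 1.11 with error-corrected (RSEC) molecules, and mm10 is named in the submitters' processing notes. The limits above were applied to these counts with python 3.11.15 (numpy 2.4.6, scipy 1.17.1, pandas 2.3.3). UMIs were summed per class and library and scaled per 1000000 non-mitochondrial UMIs. Ratios have exact conditional binomial intervals, levels Poisson intervals and shares Clopper-Pearson intervals. The ratio code was tested on simulated data. Doublets were sought with Scrublet in scanpy 1.11.5 and not removed. Immune cells had more UMIs of 7 immune than of 6 endothelial genes. Named genes were rule genes and markers, list members with at least 20 UMIs, the 10 highest and lowest ratios whose interval left out 1, and the 10 leading genes on each side of the NK-like and T-like comparison. Genes named outside these were chosen after their values were seen, and some list members are not reported here. The members and lists were chosen with earlier results of these data known. Alternatives covered cell limits, sex, denominators, scaling and gene filters.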

Additional observations from a re-analysis of the deposited data

Results flagged for a closer look

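Of 1142 genes with at least 20 UMIs in both classes, 17 had KO over WT counting intervals on opposite sides of 1 in NK-like and T-like cells. Of these, 8 were past 2-fold in both. Among all genes past the UMI minimum, the interval left out 1 for 244 of 1432 in NK-like and 245 of 1481 in T-like cells. Some genes would therefore fall on opposite sides even if the classes were unrelated. That number was not computed, so the 17 are not read as an excess. The difference between the classes was not tested. The pro-apoptotic gene Bcl2l11 (BIM) stood at 0.491 in NK-like cells (33 and 33 UMIs) and 3.55 in T-like cells (3 and 28 UMIs). The chromatin remodeller Chd7 stood at 0.351 in NK-like cells (14 and 10 UMIs) and 8.75 in T-like cells (1 and 23 UMIs). Elmo1, which acts in cell migration and engulfment stood at 0.328 in NK-like cells (12 and 8 UMIs) and 3.42 in T-like cells (4 and 36 UMIs). The tRNA synthetase gene Eprs stood at 0.393 in NK-like cells (15 and 12 UMIs) and 4.31 in T-like cells (3 and 34 UMIs). Kctd12 stood at 0.491 in NK-like cells (31 and 31 UMIs) and 5.32 in T-like cells (2 and 28 UMIs). Odc1 stood at 0.197 in NK-like cells (60 and 24 UMIs) and 2.36 in T-like cells (10 and 62 UMIs). The chromatin-binding factor Psip1 stood at 2.21 in NK-like cells (8 and 36 UMIs) and 0.356 in T-like cells (16 and 15 UMIs). Ulbp1, which encodes an NKG2D ligand stood at 0.295 in NK-like cells (15 and 9 UMIs) and 4.56 in T-like cells (2 and 24 UMIs). Except for Odc1 above, ratios with 3 markers are not given for these genes, so their dependence on the WT cells with fewer markers was not tested. Many of these counts came from few cells. In WT NK-like cells 1 cell held 18 of 33 UMIs of Bcl2l11, 10 of 14 of Chd7, 7 of 12 of Elmo1, 5 of 15 of Eprs, 10 of 31 of Kctd12, 24 of 60 of Odc1, 5 of 8 of Psip1 and 8 of 15 of Ulbp1. In KO T-like cells 1 cell held 19 of 34 UMIs of Eprs and 23 of 62 of Odc1.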

How the results depend on the processing

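No paired analysis was possible because there was 1 library per genotype. Moving cells with any T cell receptor constant UMI to the T-like class left NK-like shares of 0.0397% (WT) and 0.0577% (KO), T-like shares of killer-lectin cells of 94.7% and 96.0%, 13 genes higher and 28 lower of 103, and a median of -1.01 for immediate early genes. Over T and killer-lectin cells the NK-like shares were 0.999% and 1.58%. Female cells alone gave 0% NK-like and 100% T-like in WT (2 of 2), with no expression comparison. Male cells alone gave 66 genes higher and 76 lower of 482. Requiring 50 UMIs gave 30 and 21 of 478, and no filter gave 722 and 1719 of 6354, since fewer or more genes were measured. Leaving out each gene's highest cell in each library, chosen after seeing the data, gave 295 and 75 of 1432 and a median of 1.07 for adaptors and kinases. It removes 1 of 10 WT cells but 1 of 26 KO cells, so it lowers WT levels more. Il7r turned to 0.10 with 3 receptor UMIs and to 1.37 with 3 of the 5 markers. The other 232 summary values stayed within the counting interval for shares and within 1.5 times for gene counts. List medians were held only to the spread of their members, which is wide. The medians of inhibitory receptors (0.36, lowest -0.29) and cytokine receptors (-0.32, highest 0.21) changed sign in some settings. So did those of the granule, maturation, interferon-stimulated, MHC class I and autophagy lists. Those of activating receptors, adaptors and kinases, secreted factors, lineage factors and homing genes did not. The 10 WT cells limit the precision of every ratio.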
